A study of Mus musculus with 11 samples.

Results

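The 3 cell lines derived from murine melan-a melanocytes, 4C, 4C11- and 4C11+, were compared together with melan-a itself, to ask which transcripts had changed in every line that had passed through detachment. All 9 libraries of the derived lines (3 per line) were set against 2 melan-a libraries (replicates 2 and 3), which are all 11 libraries used here, and all 14272 deposited genes were compared, of which 14248 had a gene symbol. The difference of a gene was the mean of the 3 line means minus the melan-a mean, so that each line weighed equally. Melan-a is an immortalized line of nonmalignant melanocytes. The other lines were obtained from it by cycles in which adherent cells are kept from attaching and then allowed to re-adhere. 4C is described as pre-malignant, 4C11- as a non-metastatic melanoma line and 4C11+ as a metastatic one, and 4C and 4C11- as mesenchymal-like. All lines were grown in RPMI with serum (5%, fetal bovine), and the phorbol ester PMA was added only to the melan-a medium, at 200 nM. The presence of PMA and the passage through detachment therefore cannot be told apart in any difference from melan-a that follows. Each derived line is a single line of the same descent, so the 9 libraries replicate cultures of 3 related lines and not independent transformations, and p-values measure the spread between cultures. The melan-a library numbered 1 was not used here.

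Melanocytes make melanin in melanosomes under the transcription factor MITF and depend on the receptor KIT and on signals that activate protein kinase C (PKC). Melanocyte cultures are commonly given a phorbol ester, which activates PKC in place of diacylglycerol and, when it is kept in the medium, also depletes several PKC isoforms. Adherent cells read the matrix through integrins, and cells that do not survive without this contact die by a form of apoptosis called anoikis.

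Values are the deposited log2 CPM, the log2 of read counts scaled to the total of a library, so a difference of 1 is a doubling. All libraries share their highest value, as after a further quantile normalization. Judged by the value that 40 reads take in each library, depth was about 3500000 to 7420000 reads, with 3500000 and 5820000 in melan-a. This estimate treats the values as scaled to the library total only, so a further scaling would shift it. The 2 melan-a libraries correlated at 0.907 over genes, against 0.888 to 0.981 within the derived lines. The value that 3 reads take was between -2.01 and 0.15 depending on the library, so differences at the bottom of the scale do not show a size. A line with no library above 3 reads was treated as not detected. Where melan-a was at 0 reads in both libraries, the difference is given as a lower bound taken at 3 reads per library. Where it was detected in neither library but had a few reads, the difference is given with the 95% interval from counting those reads, which covers counting error only. The interval rests on the estimated depth and does not cover a further scaling of the values. No bound is given for falls. Where a derived line had 3 reads or fewer, the size of a fall depends on where its libraries place their lowest values. The summed level of 12 measured melanocyte markers was 5223 to 11575 CPM in melan-a and 15222 to 19188 CPM in 4C11+, with every marker detected in both. It was 411 to 1389 CPM in 4C (3 markers not detected) and 102 to 530 CPM in 4C11- (4 not detected). Of the fibroblast markers, the 3 that were measured summed to 17.9 to 85.9 CPM in melan-a, 2025 to 2213 CPM in 4C, 1663 to 1998 CPM in 4C11- and 8.30 to 9.50 CPM in 4C11+. In bulk RNA, fewer cells of a type and less RNA per cell cannot be told apart.

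The derived lines differed from melan-a in 1753 genes, of which 940 (6.59% of all genes) were higher and 813 (5.7%) were lower (limma, adjusted p under 0.05). The median difference over all genes was -0.06. For 492 genes (3.45%) every one of the 9 derived libraries lay above both melan-a libraries, and for 416 genes (2.91%) every one lay below them. These 908 genes are called shared rises and shared falls here. With the 9 derived libraries fitted as 1 group, so that differences between the lines entered the error, 143 genes were higher and 30 lower. Without melan-a replicate 2 there were 429 lower genes and 271 lower in every library, and with library weights 531 and 259. A gene had to reach 1 CPM in 4 or more libraries to enter the deposited table, which a gene detected in melan-a alone could not do, so the number and the size of falls shared by all lines are bounded by that filter. A gene absent from melan-a could enter, and the sizes of rises and falls are therefore not compared. Of the 492 shared rises 175 were at 3 reads or fewer in both melan-a libraries, and 93 of these at 0. No shared fall was at 3 reads or fewer in all 9 derived libraries. Protein-coding genes made up 96.1% of the shared rises and 89.7% of the shared falls, against 83.7% of all genes.

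**Figure D1:**
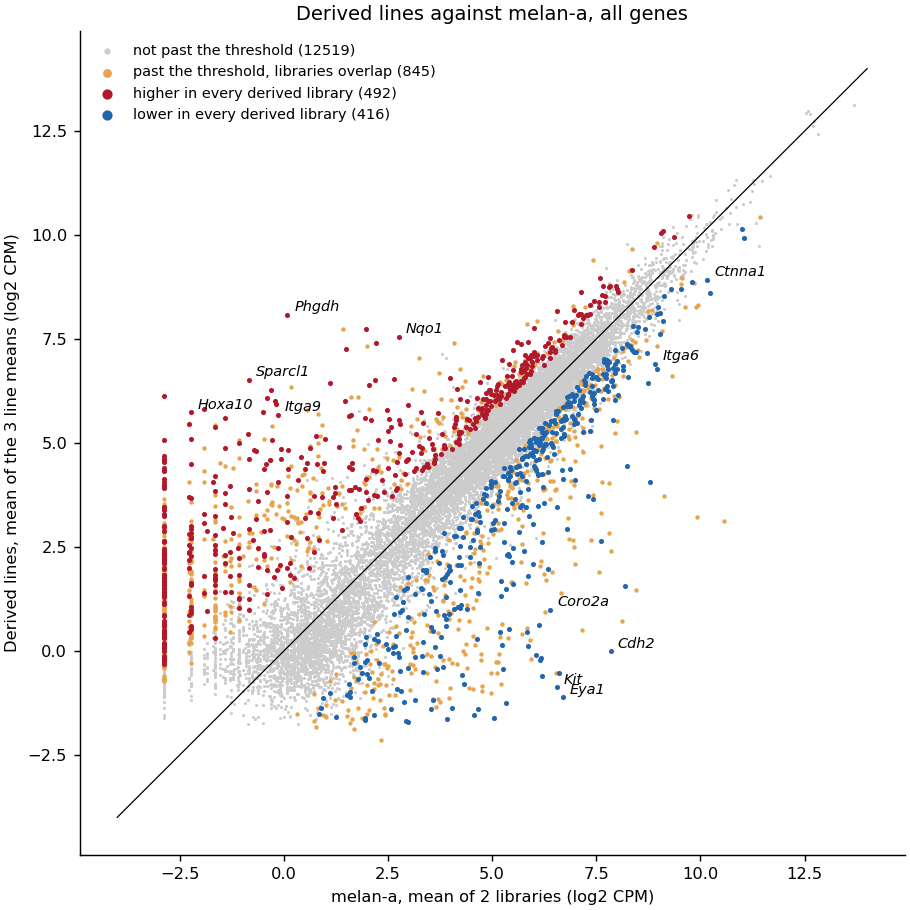
Mean level in melan-a (2 libraries, x axis, log2 CPM) against the mean of the 3 derived line means (y axis, log2 CPM) for 14272 genes, with genes higher in every derived library in red (492), lower in every one in blue (416), other genes past the threshold in orange (845) and the rest in grey. The line marks equal levels. The column of points at the far left holds genes with no reads in melan-a, among them 93 of the red ones.

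A shared direction did not mean a shared size. The 3 derived lines differed from each other in 4705 genes (33.0%, limma F-test). Among the 492 shared rises 222 (45.1%) also differed in size between the lines, and among the 416 shared falls 180 (43.3%) did. Of the 448 higher genes whose libraries overlapped with melan-a, 399 (89.1%) differed between the lines, as did 365 of the 397 such lower genes (91.9%). In 17 higher and 24 lower genes a line had moved past the threshold in the direction opposite to the mean. The median difference over the shared rises was 2.31 in 4C, 2.38 in 4C11- and 1.85 in 4C11+, and over the shared falls it was -1.60, -1.46 and -1.31. These 3 differences share the same 2 melan-a libraries. The 4C11+ line had the smallest difference of the 3 for 242 of the shared rises and 214 of the shared falls. In 40 of the shared rises a derived line was itself at 3 reads or fewer, in 38 of them 4C11+, and there the lack of overlap rests on where a library places its lowest values. Of the shared falls, 71 were at 3 reads or fewer in at least 1 line. With a single library left out, 252 of the 492 and 111 of the 416 kept their call whichever of the 11 it was. Without melan-a replicate 2, 313 and 158 kept it, and without replicate 3, 340 and 243.

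The 12 genes in each direction whose smallest difference over the 3 lines was largest are described next. The rank uses the measured values and is a description. *Hoxa10*, a homeobox factor of posterior body identity at chr6:52231197-52240854 on the minus strand (GRCm38), was at -1.90 and -2.58 in melan-a, that is 1 read and none. It was at 5.54, 5.91 and 5.67 in 4C, 5.56, 5.45 and 5.85 in 4C11-, and 5.91, 6.20 and 5.55 in 4C11+. The derived libraries formed one group in which the 3 lines overlapped, and the fitted difference was 7.98 ± 0.28 (SE, limma adjusted p = 2.93e-08), with a counting interval of 6.48 to 14.26. *Phgdh*, the first enzyme of serine synthesis from a glycolytic intermediate, was at 0.87 and -0.70 in melan-a, at 8.04, 7.45 and 7.55 in 4C, at 8.26, 8.10 and 7.68 in 4C11-, and at 8.65, 8.82 and 8.17 in 4C11+. It rose by 8.0 ± 0.35 (adjusted p = 1.06e-07), and the lines did not differ past the threshold (F-test adjusted p = 0.187).

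The other named rises had different functions. *Acvrl1*, a type I receptor of the TGF-beta family, was at -0.25 and -2.58 in melan-a and at 5.66, 5.21 and 5.80 in 4C, 6.15, 4.48 and 3.95 in 4C11-, and 6.18, 6.27 and 6.59 in 4C11+, a difference of 7.01 ± 0.59 with a counting interval of 5.68 to 9.50. *Lrrk2*, a kinase with leucine-rich repeats, was at -3.15 and -1.42 in melan-a against 4.33 to 6.87 in the derived libraries. In both genes every derived library stood far from the melan-a values. *Arhgap32*, a GTPase-activating protein, had no read in melan-a and lay at 4.50 to 5.58 in the derived libraries, higher by at least 5.47. *Wipf1*, a partner of the actin regulator WASP, had 1 read over both melan-a libraries and was at 3.62 to 5.05 in the derived ones. *Obsl1*, a cytoskeletal adaptor, had 2 reads in melan-a and was at 4.87 to 5.75. These 3 genes had at most 2 reads over both melan-a libraries. *Prdm11*, a PR domain protein, had no read in melan-a and was at 4.29 to 5.23, higher by at least 5.02.

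*Timp1*, an inhibitor of metalloproteinases, had no read in melan-a and was at 5.08, 5.54 and 4.94 in 4C, 5.22, 4.73 and 4.55 in 4C11-, and 3.69, 4.0 and 3.56 in 4C11+. It was higher by at least 4.98 over the lines, and the level in 4C11+ lay below that of every library of the other lines (F-test adjusted p = 0.012). *Sparcl1*, a matricellular protein related to SPARC, was at -0.25 and -1.42 in melan-a and at 5.0 to 7.37 in the derived libraries, a difference of 7.36 ± 0.49 with a counting interval of 6.38 to 9.61. *Map1lc3a*, a protein of the autophagosome membrane, had 1 read over both melan-a libraries and was at 3.52 to 6.45 in the derived ones. *Pxmp4*, a peroxisomal membrane protein, had no read in melan-a and was at 3.32 to 5.56, higher by at least 4.71. These 12 genes kept their call under each of the 19 alternatives in which they were tested.

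The shared falls included receptors and adhesion genes, and 8 of the 12 named differed between the lines. *Kit*, the receptor of stem cell factor on which melanocytes depend, lies at chr5:75574916-75656722 on the plus strand. It was at 6.92 and 6.18 in melan-a, at -0.04, -3.44 and -3.44 in 4C (6 reads, none and none), at -3.15, -3.44 and -3.44 in 4C11- (no reads), and at 2.69, 2.17 and 4.22 in 4C11+. It fell by 7.43 ± 0.83 (adjusted p = 0.000109), and the 4C11+ value was -3.53 ± 0.97 from melan-a (F-test between the lines, adjusted p = 0.000309). *Itga8*, the alpha 8 integrin chain, was at 5.75 and 7.48 in melan-a, at -2.44, -3.44 and -3.44 in 4C, at -0.24, -1.01 and -3.15 in 4C11-, and at 2.78, 3.54 and 2.71 in 4C11+. *Eya1*, a transcriptional coactivator, was at 7.03 and 6.34 in melan-a, -3.44 to -2.44 in 4C and 4C11-, and 2.42, 3.62 and 3.27 in 4C11+. *Tbc1d9*, a TBC domain protein, was at 5.18 and 4.92, -3.44 to -2.44 and 1.04 to 2.01 in the same order. In these 4 genes 4C and 4C11- had 6 reads or fewer in each library, and 4C11+ held a level between theirs and that of melan-a.

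Further falls had other orders. *Sorbs2*, an adaptor of the actin cytoskeleton, was at 5.30 and 5.39 in melan-a, at 0 reads in all 3 libraries of 4C, at -0.24, -2.58 and 0.22 in 4C11- and at 0.84, 0.15 and 0.69 in 4C11+. *Capn6*, a calpain without protease activity, was at 9.06 and 7.33 in melan-a, had no read in 4C, and was at 2.18, 4.16 and 3.26 in 4C11- and 4.86, 4.24 and 5.63 in 4C11+. The differences of the lines from melan-a ranged over 8.35 log2 for *Capn6* (F-test adjusted p = 1.57e-06), with 4C lowest in both genes. *Coro2a*, a coronin, was at 6.85 and 5.94 in melan-a against -1.01 to 2.97 and fell by 5.40 ± 0.68, with no difference between the lines past the threshold (F-test adjusted p = 0.0743). *Apln*, the peptide ligand apelin, was at 6.24 and 4.56 in melan-a, at -3.44 to -1.16 in 4C and at 0.06 to 3.16 in 4C11- and 4C11+. *Col9a3*, a chain of collagen IX, was at 7.07 and 3.29 in melan-a and at -1.01 to 1.97 in the derived libraries. The 2 melan-a libraries of *Col9a3* stood further apart than the 9 derived ones.

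In the last 3 genes 4C11+ was not the line nearest to melan-a. *Rtn4rl2*, a receptor of the Nogo receptor family, was at 3.69 and 3.38 in melan-a, at 0.20, -0.42 and 0.80 in 4C, and at 2 reads or fewer in every library of 4C11- and 4C11+. *Srrm4*, a splicing regulator of neuronal exons, was at 3.86 and 1.89 in melan-a, at -2.44 to 0.63 in 4C and 4C11- and at no read in 4C11+. Its antisense transcript *Srrm4os* was at 4.85 and 2.29 in melan-a and also had no read in 4C11+. The kit marks strand, but the strand setting of the counting is not given in the sources used here, so the reads of this pair cannot be told apart with certainty. The call of *Srrm4* was lost without melan-a replicate 2 (adjusted p = 0.0915). When the 9 derived libraries were fitted as 1 group, so that differences between the derived lines entered the error, 8 of the 12 falls lost their call (adjusted p from 0.0503 to 0.281). These were *Itga8*, *Eya1*, *Tbc1d9*, *Kit*, *Apln*, *Srrm4*, *Rtn4rl2* and *Capn6*.

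**Figure D2:**
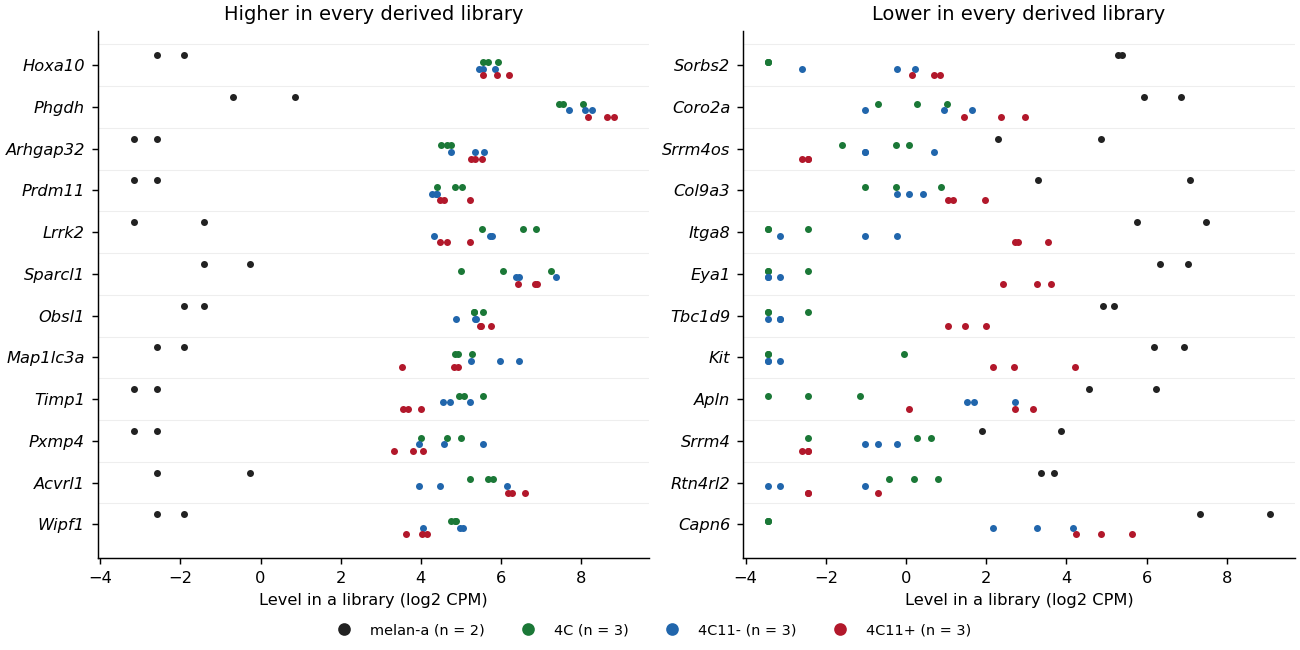
Level of the 24 named genes in each library (x axis, log2 CPM), with melan-a in black (2 points), 4C in green, 4C11- in blue and 4C11+ in red (3 points each); the left panel holds 12 genes higher and the right panel 12 genes lower in every derived library. On the left the 3 lines differed past the threshold in 1 of 12 genes (*Timp1*), and the range of the colored points runs from narrow for *Hoxa10* (5.45 to 6.20) to wide for *Map1lc3a* (3.52 to 6.45). On the right they differed in 8 of 12, as for *Capn6* at -3.44 to 5.63.

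The promoters of *Hoxa10* and *Kit* are shown as the sequences in front of the first named rise and of the fall in the receptor that melanocytes depend on. Each runs from 250 bases before to 50 bases after a transcription start (RefSeq, GRCm38.p6), 5′ to 3′ on the strand of the gene. Neither window holds either of the motifs searched next, so no base is in capitals.
*Hoxa10*, chr6:52240805-52241104, minus strand: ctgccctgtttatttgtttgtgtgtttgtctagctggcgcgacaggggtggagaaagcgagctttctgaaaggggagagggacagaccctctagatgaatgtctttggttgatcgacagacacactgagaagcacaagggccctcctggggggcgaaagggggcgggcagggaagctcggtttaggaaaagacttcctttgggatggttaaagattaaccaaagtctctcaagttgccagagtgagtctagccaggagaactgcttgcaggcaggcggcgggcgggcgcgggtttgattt
*Kit*, chr5:75574737-75575036, plus strand: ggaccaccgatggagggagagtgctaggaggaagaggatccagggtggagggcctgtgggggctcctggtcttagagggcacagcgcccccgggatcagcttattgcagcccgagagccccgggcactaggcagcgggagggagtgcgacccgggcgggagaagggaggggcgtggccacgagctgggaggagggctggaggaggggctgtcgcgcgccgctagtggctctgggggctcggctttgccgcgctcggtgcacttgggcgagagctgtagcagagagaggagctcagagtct
The G and C content was 54.3% for *Hoxa10* and 69.0% for *Kit*, with 12 and 20 CpG pairs. Each gene had another listed window, not shown. It had 57.3% and 21 CpG pairs for *Hoxa10*, and 69.0% and 21 for *Kit*.

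Promoters of all genes were searched for 2 motifs that bear on the comparison. TGANTCA, which reads the same on both strands, is the AP-1 site through which phorbol esters act on many genes. TCATGTG, searched on both strands, is the M-box that MITF binds. A promoter was listed for 9928 deposited genes, for 380 of the shared rises and for 289 of the shared falls. TGANTCA was present in 6.01% of all, in 7.89% of the shared rises (30 genes) and in 3.11% of the shared falls (9 genes). TCATGTG was present in 2.66% of all, in 2.37% of the shared rises (9 genes) and in 6.23% of the shared falls (18 genes). These shares are descriptions, without a test. Of the 24 named genes 18 had a promoter listed, and 4 held a motif. The motif is in capitals in the sequences that follow, TGANTCA in *Pxmp4*, which rose, and *Capn6*, which fell, and TCATGTG read on the opposite strand in *Sorbs2* and *Apln*, which both fell.
*Pxmp4*, chr2:154603624-154603923, minus strand: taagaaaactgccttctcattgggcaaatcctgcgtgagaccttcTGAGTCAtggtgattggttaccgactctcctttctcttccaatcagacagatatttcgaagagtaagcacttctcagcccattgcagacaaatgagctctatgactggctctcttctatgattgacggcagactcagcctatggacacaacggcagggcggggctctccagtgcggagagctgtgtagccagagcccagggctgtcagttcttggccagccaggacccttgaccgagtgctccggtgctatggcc
*Capn6*, chrX:143827363-143827662, minus strand: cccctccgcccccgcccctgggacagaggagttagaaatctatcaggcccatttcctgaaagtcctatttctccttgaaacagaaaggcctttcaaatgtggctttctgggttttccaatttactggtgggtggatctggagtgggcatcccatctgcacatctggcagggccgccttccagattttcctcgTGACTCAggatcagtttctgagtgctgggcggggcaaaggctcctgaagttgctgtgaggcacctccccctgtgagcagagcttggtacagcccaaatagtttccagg
*Sorbs2*, chr8:45627501-45627800, plus strand: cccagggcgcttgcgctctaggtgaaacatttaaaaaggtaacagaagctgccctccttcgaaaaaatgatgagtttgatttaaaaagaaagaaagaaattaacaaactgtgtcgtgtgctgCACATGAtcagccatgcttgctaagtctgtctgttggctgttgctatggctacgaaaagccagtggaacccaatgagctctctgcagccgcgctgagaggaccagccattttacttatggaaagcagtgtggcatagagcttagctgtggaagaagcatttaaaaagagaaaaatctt
*Apln*, chrX:48034804-48035103, minus strand: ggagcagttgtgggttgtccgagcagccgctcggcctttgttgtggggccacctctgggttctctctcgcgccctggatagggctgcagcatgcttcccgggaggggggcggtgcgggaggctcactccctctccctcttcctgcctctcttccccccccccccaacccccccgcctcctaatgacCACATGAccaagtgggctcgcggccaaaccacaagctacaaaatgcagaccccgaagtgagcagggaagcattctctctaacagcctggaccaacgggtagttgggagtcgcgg
The AP-1 letters thus stand in front of 1 named rise and 1 named fall. The remaining 14 genes held neither motif in these windows, and neither did the other windows listed for *Sorbs2*. *Acvrl1*, *Col9a3*, *Eya1*, *Map1lc3a*, *Sparcl1* and *Srrm4os* had no promoter listed.

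*Hoxa10* belonged to a wider pattern in the Hox clusters, a family chosen here after its values were seen. Hox genes lie in clusters and mark the position of a cell along the body axis, and the genes numbered highest are the most posterior. Described here are 24 of them, 9 of cluster a, 6 of cluster b and 9 of cluster c. In melan-a 23 of the 24 were at 3 reads or fewer in both libraries, the exception being *Hoxb4*. In 4C and 4C11- every one of the 24 was above that in at least 1 library, and in 4C11+ 12 were not. Of the 24, 21 rose (87.5%, against 6.59% of all genes) and none fell, 17 of them whichever library was left out, and the median difference was 3.68 against -0.06 over all genes.

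The 3 clusters differed in 4C11+. In cluster a, each of the 9 genes described rose and 1 of the 9 was not detected in 4C11+. *Hoxa9*, next to *Hoxa10*, had no read in melan-a and was at 4.03, 4.84 and 4.33 in 4C, 4.36, 3.38 and 4.10 in 4C11-, and 1.33, 1.90 and 2.32 in 4C11+, higher by at least 3.79 over the lines and by at least 2.25 in 4C11+. *Hoxa7* had no read in melan-a and was at 2.13, 1.31 and 1.77 in 4C, 1.83, 1.51 and 1.66 in 4C11-, and 3.37, 3.24 and 2.23 in 4C11+, higher by at least 2.51. All 4C11+ libraries lay below the other derived ones for *Hoxa9* and above them for *Hoxa7* (F-test adjusted p = 0.00135 and 0.0689, the latter not past the threshold). *Hoxa5*, at 3 and 2 reads in melan-a, was at 1.87 to 2.73 in the 9 derived libraries, a difference of 2.75 ± 0.36 with a counting interval of 1.95 to 4.80. *Hoxa13*, the most posterior of the cluster, was at 1.46 to 2.83 in 4C and 4C11- and had no read in any library of melan-a or 4C11+.

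In cluster c all 9 genes were at 3 reads or fewer in 4C11+ as in melan-a. *Hoxc9* was at 4.21, 4.25 and 3.78 in 4C and 4.91, 4.26 and 4.14 in 4C11-, with no read in the other 5 libraries. *Hoxc11* was at 4.83, 4.60 and 4.47 in 4C and 4.67, 3.80 and 4.16 in 4C11-, also with no read elsewhere. In cluster b, *Hoxb13* was at -0.72 and -2.58 in melan-a, 5.92, 6.10 and 5.86 in 4C, 6.40, 5.65 and 5.60 in 4C11- and 0.44, 0.67 and 1.32 in 4C11+. *Hoxb4*, detected in melan-a at 1.77 and 1.59, was at 1.87 to 3.11 in 4C and 4C11- and had no read in 4C11+. Of the 9 cluster a genes 7 were higher in every derived library, the exceptions being *Hoxa2* and *Hoxa13*. The annotated span of *Hoxa3* covers *Hoxa5* and *Hoxa6*, and that of *Hoxc5* covers *Hoxc6*, *Hoxc8*, *Hoxc9* and *Hoxc10*, on the same strand, and how the counting treated such reads is not given in the sources used here.

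**Figure D3:**
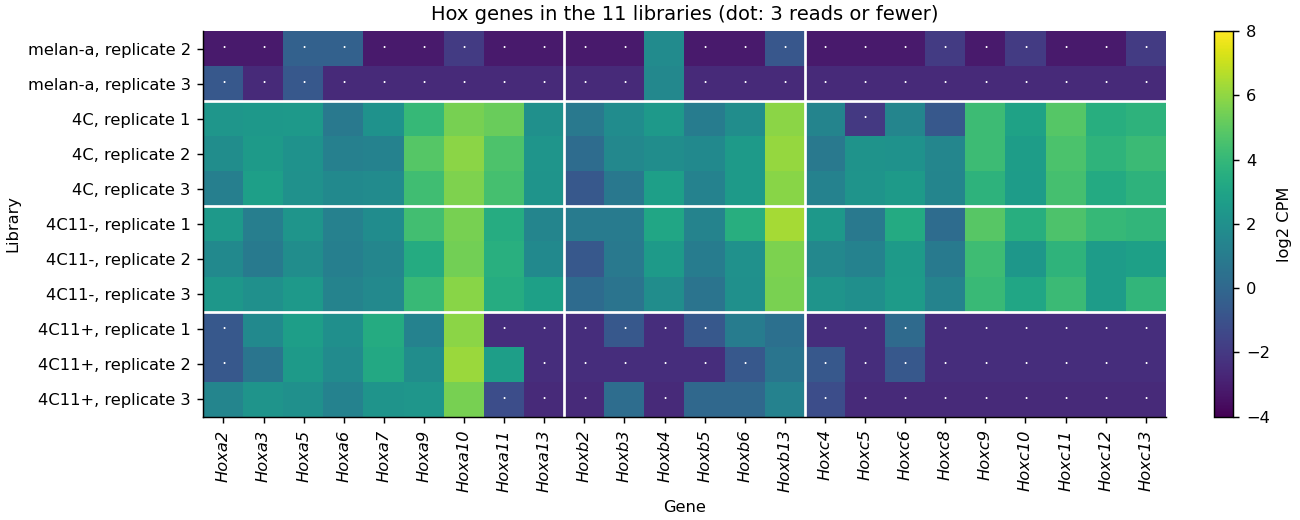
Level of 24 Hox genes (columns, clusters a, b and c from left to right) in the 11 libraries (rows), with color for log2 CPM and a dot where a library had 3 reads or fewer. The melan-a rows are dark but for *Hoxb4*, the 4C and 4C11- rows are light in all clusters, and in the 4C11+ rows cluster c is dark while *Hoxa10* is as bright as in the other lines, at 5.91, 6.20 and 5.55.

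Genes of melanocyte identity fell on average, but not in all lines. Of 22 measured genes 14 (63.6%) fell, against 5.7% of all genes, and 9 of these kept the call whichever library was left out. The median difference was -2.70, and the line medians were -5.27, -5.0 and 1.31 in 4C, 4C11- and 4C11+. All 22 differed between the lines, against 33.0% of all genes. *Mitf*, the regulator of pigment genes, was at 7.73 and 7.97 in melan-a, at 0.87, -0.70 and 0.44 in 4C, at -0.70, 1.14 and -0.70 in 4C11-, and at 6.38, 6.23 and 8.76 in 4C11+. *Tyr*, the first enzyme of melanin synthesis, was at -0.25 and 1.29 in melan-a, at 2 reads or fewer in 4C and 4C11- and at 8.46, 8.39 and 8.70 in 4C11+, and its mean difference was 0.33 (adjusted p = 0.741). *Pmel*, the protein of melanosome fibrils, was the only member called higher, by 1.88, from differences of -2.27, -1.32 and 9.23 in 4C, 4C11- and 4C11+. That call was lost in 3 of the 11 fits with a library left out, among them those without melan-a replicate 2 (adjusted p = 0.184) and 3 (adjusted p = 0.0617). *Kit* was the only identity gene lower in every derived library. *Pax3*, a factor upstream of *Mitf*, was at 7.94 and 6.94 in melan-a and at 5.10 to 7.16 in the derived libraries.

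Neural crest and glial genes included 9 of 16 lower (56.2%, against 5.7% of all genes) and 3 higher (18.8%, against 6.59%), with a median of -1.26. Only 2 of the 9 falls and none of the 3 rises were in every derived library. Line medians were -2.26, -1.32 and -0.07 in 4C, 4C11- and 4C11+. *L1cam*, an adhesion molecule of neural cells, was at 6.42 and 5.70 in melan-a, at -2.44, -2.44 and -3.44 in 4C, at 1.01, -2.01 and -2.44 in 4C11-, and at 3.50, 3.32 and 4.07 in 4C11+. It fell in every derived library, by 6.16 ± 0.75. *Nes*, the intermediate filament nestin, also fell in every one, by 1.05, but lost the call without melan-a replicate 3 (adjusted p = 0.183). *Nrcam*, another neural adhesion molecule, fell by 6.64 on the mean and was at 7.61 to 8.06 in 4C11+ against 6.21 and 8.09 in melan-a. Among Schwann cell markers 1 of 5 was higher (20%, against 6.59% of all genes) and 3 were lower (60%, against 5.7%, median -1.47).

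Because PMA was present only in melan-a, genes that phorbol esters or the ERK pathway induce were examined as a group. Of 31 measured response genes 4 rose (12.9%) and 3 fell (9.68%), against 6.59% and 5.7% of all genes, with a median of -0.56, and 24 did not pass. *Spry2*, a feedback inhibitor of receptor signalling, was at 5.23 and 5.73 in melan-a, at 3.45, 1.96 and 2.55 in 4C, 4.29, 3.02 and 3.08 in 4C11-, and 4.44, 4.65 and 4.49 in 4C11+, and fell by 1.93 ± 0.41. *Dusp4*, a phosphatase of ERK, and the zinc finger factor *Klf6* also fell in every derived library, by 1.53 and 0.67. None of these 3 falls held in every fit with a library left out, and the highest adjusted p was 0.0838, 0.176 and 0.157. *Plaur*, the urokinase receptor, was at 3.23 and 1.89 in melan-a and at 5.89, 6.0 and 6.15 in 4C, 5.87, 5.33 and 4.95 in 4C11-, and 4.87, 4.60 and 4.79 in 4C11+. It rose by 2.82 ± 0.34 in every derived library and kept its call in all 11 such fits. *Ptgs2*, the inducible cyclooxygenase, had no read in melan-a or 4C11+ and was at 1.20 to 4.13 in the other lines.

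Of 11 PKC isoforms and related diacylglycerol targets 3 fell (27.3%) and none rose, against 5.7% and 6.59% of all genes. *Prkcz*, an atypical isoform that does not bind phorbol esters, was at 3.41 and 4.27 in melan-a and at -2.01 to 2.45 in the derived libraries. It was the only one lower in every library, and it kept its call in 4 of the 11 fits with a library left out (highest adjusted p = 0.181). *Prkcq*, an isoform known from T cells, had 0 or 1 read in each library of 4C and 4C11- and was at 7.77, 7.54 and 7.46 in 4C11+, against 4.61 and 6.84 in melan-a. *Rasgrp3*, an exchange factor of Ras that binds diacylglycerol, was at 3.57 and 4.16 in melan-a, at -3.15 to 0.63 in 4C and 4C11-, and at 5.58, 5.59 and 6.02 in 4C11+. The conventional isoform *Prkca* was at 5.92 and 4.90 in melan-a and 4.39 to 6.15 in the derived libraries (difference -0.03, adjusted p = 0.962). *Prkcd* was at 7.34 and 6.55 against 5.18 to 7.48 (difference -0.44, adjusted p = 0.319).

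Of 20 integrin chains 5 fell (25%, against 5.7% of all genes), all 5 in every derived library (against 2.91%), and 1 rose (5%, against 6.59%), with a median of -0.30. *Itga9*, the alpha 9 chain, was at 0.40 and -0.70 in melan-a and at 5.61, 5.29 and 5.30 in 4C, 6.78, 6.52 and 6.09 in 4C11-, and 5.26, 5.11 and 5.13 in 4C11+, a rise of 5.82 ± 0.30 (adjusted p = 3.64e-07). *Itga6*, a laminin-binding chain, was at 8.87 and 8.96 in melan-a, at 6.91, 6.30 and 6.60 in 4C, 5.69, 5.98 and 6.11 in 4C11-, and 7.97, 7.96 and 8.56 in 4C11+, and fell by 2.01 ± 0.23. *Itgb8* fell by 4.36, and *Itga2* and *Itgb3* by 2.21 and 1.94. *Itga2* and *Itgb3* kept their call in 5 and 5 of the 11 fits with a library left out, and lost it without melan-a replicate 2 (adjusted p = 0.296 and 0.177).

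Of 14 cadherins and catenins 3 fell (21.4%) and 2 rose (14.3%), against 5.7% and 6.59% of all genes, with a median of -0.63. *Cdh2*, N-cadherin, was at 7.41 and 8.28 in melan-a, had no read in any library of 4C or 4C11-, and was at 6.71, 6.72 and 6.84 in 4C11+. *Cdh2* fell in every library, by 7.85 ± 0.36 on the mean, with a difference of -1.09 in 4C11+. The mean rests on where 4C and 4C11- libraries place a gene without reads, so 7.85 and its SE do not show a size. *Ctnna1*, alpha-catenin, was lower in all lines. It was at 10.37 and 9.97 in melan-a, 9.11, 9.13 and 9.40 in 4C, 9.03, 8.89 and 8.92 in 4C11-, and 8.62, 8.62 and 8.64 in 4C11+, a fall of 1.24 ± 0.16 (adjusted p = 0.000394), and the libraries of the 3 lines did not overlap (F-test adjusted p = 0.0532). Of 10 transcription factors of epithelial-to-mesenchymal transition 5 rose (50%, against 6.59% of all genes) and 1 fell (10%, against 5.7%). Only 1 of the 5 rises was in every derived library. The median was 2.03, with line medians of 3.61, 4.12 and -0.23 in 4C, 4C11- and 4C11+. *Twist2*, *Snai1* and *Prrx2* had 0 or 1 read in each library of melan-a and 4C11+, and were at 4.22 to 5.17, 4.36 to 5.99 and 4.68 to 5.86 in 4C and 4C11-. *Snai2*, known for a role in melanocyte development, fell in every derived library, from 3.13 and 3.18 to 1.13 or less.

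The rises among matrix genes belonged largely to 4C and 4C11-. Of 34 measured, 12 rose (35.3%, against 6.59% of all genes), 2 of them in every derived library, and 5 fell (14.7%, against 5.7%), with a median of 0.53 and line medians of 1.87, 1.89 and -1.51. *Col1a1*, a chain of collagen I, was at 1.35 and 1.48 in melan-a and 1.32 to 2.16 in 4C11+, and at 10.42 to 10.91 in the other 6 libraries, so that its mean difference of 6.31 was not a shared one. *Col4a2*, a chain of basement membrane collagen, stood 2.75, 5.56 and 4.29 above melan-a in 4C, 4C11- and 4C11+. *Sparc*, a matricellular protein, stood 1.05, 1.02 and 0.94 above it, a call kept in 3 of the 11 fits with a library left out (adjusted p = 0.438 without melan-a replicate 3). *Spp1*, osteopontin, was at 7.94 and 8.52 in melan-a, at 5.13, 4.96 and 6.54 in 4C, 6.26, 7.11 and 6.88 in 4C11- and 0.15, 1.32 and 1.70 in 4C11+, and fell in every library. *Col9a1*, which pairs with *Col9a3* in collagen IX, also did, by 6.36. Of 3 measured fibroblast markers 2 rose (66.7%, against 6.59% of all genes), *Col1a1* and *Col3a1*, neither of them in every derived library. Both are themselves part of the summed marker levels given at the start, and the part of such cells in these results was not tested. The 1 measured endothelial marker, *Cdh5*, was at -3.15 and -1.42 in melan-a, 4.01, -0.70 and 0.44 in 4C, 6.73, 7.43 and 6.54 in 4C11- and no read in 4C11+, and its call was lost without melan-a replicate 2 (adjusted p = 0.14).

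**Figure D4:**
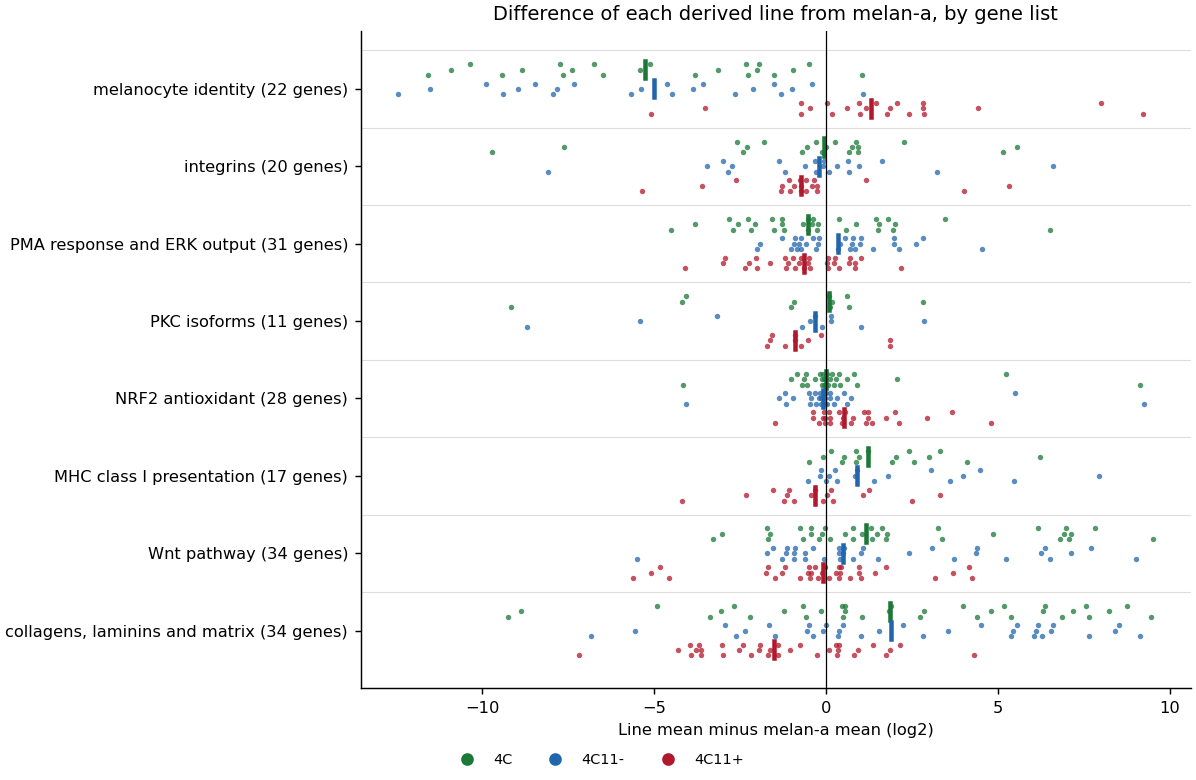
Difference of each derived line mean from the melan-a mean (x axis, log2) for the members of 8 gene lists (rows, number of measured genes in brackets), with a point per gene and a vertical bar at the median, 4C in green, 4C11- in blue and 4C11+ in red. The melanocyte identity medians lie at -5.27, -5.0 and 1.31, those of the matrix genes at 1.87, 1.89 and -1.51, and those of the NRF2 genes near 0 with a few points far to the right.

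Among 29 growth factor receptors 9 fell (31%) and 4 rose (13.8%), against 5.7% and 6.59% of all genes, with a median of -0.03. Besides *Kit*, the guidance receptor *Epha4* and the related receptors *Mertk* and *Tyro3* were lower in every derived library, by 3.28, 2.62 and 1.53. *Mertk*, a receptor for the uptake of dying cells, was at 7.02 and 5.17 in melan-a and at 1.78 to 4.35 in the derived libraries. The call of *Tyro3* was lost without melan-a replicate 2 (adjusted p = 0.0531). *Egfr*, the receptor of epidermal growth factor, had no read in melan-a and was at 4.10, 4.03 and 4.60 in 4C and 4.29, 5.13 and 4.80 in 4C11-. In 4C11+ it had 1 read over 3 libraries, so its rise does not hold there in reads. *Ddr2*, a collagen receptor, was at 3.13 and 4.85 in melan-a and at 5.52 to 7.72 in the derived libraries, and its call was lost without melan-a replicate 2 (adjusted p = 0.121).

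Of 34 genes of the Wnt pathway 12 rose (35.3%, against 6.59% of all genes) and 4 fell (11.8%, against 5.7%), with a median of 0.47. Only 4 of the 12 rises were in every derived library, and the line medians were 1.18, 0.51 and -0.08 in 4C, 4C11- and 4C11+. The ligand *Wnt6* had no read in melan-a and was at 6.71, 6.69 and 6.53 in 4C, 6.53, 6.34 and 5.61 in 4C11-, and 1.04, 0.44 and 1.04 in 4C11+, higher by at least 4.94. *Axin2*, a feedback inhibitor that canonical Wnt signals induce in many cells, was at -1.90 and 0.22 in melan-a, at 5.89, 6.42 and 6.11 in 4C, 4.55, 4.65 and 4.01 in 4C11-, and 3.41, 2.96 and 3.60 in 4C11+. It rose by 5.46 ± 0.45 (adjusted p = 1.11e-05), and the libraries of the 3 lines did not overlap, with 4C highest and 4C11+ lowest (F-test adjusted p = 0.00223). *Wnt7b* was at 2.57 to 5.77 in 4C and 4C11- with at most 2 reads in a library of 4C11+. *Wnt9a* stood 1.73, 4.35 and 3.18 above melan-a in 4C, 4C11- and 4C11+ (adjusted p = 0.0594 without melan-a replicate 2). The receptor *Fzd5* fell in every library, by 1.53, and lost the call without melan-a replicate 2 (adjusted p = 0.137). In the TGF-beta and BMP list 3 of 31 rose (9.68%, against 6.59% of all genes) and none fell (median 0.43). These were *Acvrl1*, which rose in all lines, and the ligands *Inhbb* and *Bmp4*, at 5.10 to 6.38 and 4.32 to 5.93 in 4C and 4C11- with no read in 4C11+.

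Of 28 genes of the NRF2 antioxidant response 4 rose (14.3%, against 6.59% of all genes), all 4 in every derived library. A further 1 fell (3.57%, against 5.7%) and 23 did not pass, and the median was 0.04. *Nqo1*, a quinone reductase, was at 2.65 and 2.86 in melan-a and at 7.75, 7.71 and 8.56 in 4C, 8.58, 8.49 and 7.68 in 4C11-, and 7.01, 6.84 and 5.42 in 4C11+, a rise of 4.80 ± 0.40 (adjusted p = 1.13e-05). *Gsta4*, a glutathione transferase of lipid aldehydes, was at -3.15 and -0.70 in melan-a, at 7.31, 6.64 and 7.67 in 4C, 7.57, 7.27 and 7.17 in 4C11-, and 3.0, 2.91 and 2.71 in 4C11+, a difference of 7.73 ± 0.49 with a counting interval of 6.17 to 11.07. *Nqo1* and *Gsta4* stood higher in every derived library, with all 4C11+ libraries below those of the other lines (F-test adjusted p = 0.00958 and 5.08e-05). *Srxn1* and *G6pdx* rose by 1.60 and 0.69, and *G6pdx* kept its call in 6 of the 11 fits with a library left out (adjusted p = 0.127 without melan-a replicate 2).

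In glycolysis 2 of 24 genes rose (8.33%) and 3 fell (12.5%), against 6.59% and 5.7% of all genes (median -0.37). Both rises were glucose transporters. *Slc2a4* had no read in melan-a and was at 1.78, 0.26 and 1.05 in 4C, 3.82, 2.89 and 2.89 in 4C11-, and 1.04, 0.85 and 1.44 in 4C11+, higher by at least 2.17. *Slc2a3* was at 4.03 and 0.06 in melan-a and at 5.12 to 7.79 in the derived libraries. *Pfkp*, the platelet form of phosphofructokinase, was at 8.44 and 8.39 in melan-a and at 7.23, 7.49 and 7.52 in 4C, 7.68, 7.27 and 7.49 in 4C11-, and 6.67, 6.61 and 6.74 in 4C11+, a fall of 1.22 ± 0.18. *Ldhb*, a subunit of lactate dehydrogenase, fell by 1.19 in every library (adjusted p = 0.138 without melan-a replicate 2). Of 13 mitochondrial transcripts 1 fell (7.69%, against 5.7% of all genes), *mt-Nd1*, by 0.85. It kept the call in 3 of 11 fits with a library left out, and not in the fit without melan-a replicate 3.

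Of 17 genes of MHC class I presentation 6 rose (35.3%, against 6.59% of all genes) and none fell, with a median of 0.33. Only 2 of the 6 rises were in every derived library, and the line medians were 1.22, 0.91 and -0.33 in 4C, 4C11- and 4C11+. *H2-K1*, a classical class I heavy chain, had 2 reads in each melan-a library and was at 4.24, 5.88 and 6.39 in 4C, 8.84, 6.79 and 6.10 in 4C11-, and 2.37, 1.44 and 1.53 in 4C11+, a difference of 5.55 ± 0.65 with a counting interval of 4.71 to 7.94. *H2-Q4* was also higher in every derived library, by 3.73 (adjusted p = 0.0593 without melan-a replicate 3). Class I genes are close in sequence, so the reads of these genes may be split between them and their values are uncertain. Of 33 interferon-stimulated genes 3 rose (9.09%) and 1 fell (3.03%), with a median of 0.19, shares near those over all genes. *Trim30a* rose in every library by 3.54, with a counting interval of 2.21 to 6.03. *Mx1*, an antiviral GTPase, was at 5.97 and 2.59 in melan-a and at -3.15 to 2.32 in the derived libraries (adjusted p = 0.0797 without melan-a replicate 2). Of 17 chemokines and cytokines 4 rose (23.5%, against 6.59% of all genes) and 1 fell (5.88%, against 5.7%, median 0.40). Of the 4 rises 1 was in every derived library, and 2 kept the call whichever library was left out. *Ccl2*, an attractant of monocytes, was at -1.90 and -2.58 in melan-a, 5.19, 4.51 and 4.47 in 4C, 5.20, 4.71 and 4.46 in 4C11- and 1.60, 0.85 and 2.03 in 4C11+. Of 3 macrophage markers none passed (median -0.69).

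Of 35 genes of DNA replication and mitosis 2 rose (5.71%) and none fell, against 6.59% higher and 5.7% lower over all genes (median 0.37). *Mcm6*, a subunit of the replicative helicase, was higher in every derived library, at 7.27 and 7.92 in melan-a and 8.46 to 9.42 in the derived ones. Of 27 genes of the p53 pathway and G1 checkpoint 3 rose (11.1%, against 6.59% of all genes) and 3 fell (11.1%, against 5.7%, median 0.26). *Ccnd2*, cyclin D2, was at 7.63 and 6.64 in melan-a and at 7.87 to 9.60 in the derived libraries. *Cdkn1b*, the inhibitor p27, was at 7.88 and 7.52 against 6.33 to 7.13, a fall of 1.07 ± 0.21 (adjusted p = 0.0709 without melan-a replicate 2). *Cdkn2a*, which encodes p16 and ARF, fell on the mean by 2.99 and had 1 read over 3 libraries of 4C11+, while it was at 6.32 to 7.90 in the other derived lines against 7.36 and 6.59 in melan-a. In the BCL2 family 2 of 12 rose (16.7%, against 6.59% of all genes) and 1 fell (8.33%, against 5.7%, median -0.05). The fall was *Bid*, a protein that promotes cell death. It was at 6.87 and 7.21 in melan-a and 4.76 to 6.11 in the derived libraries, a fall of 1.56 ± 0.25.

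Of 16 histone acetyltransferases 1 rose (6.25%, against 6.59% of all genes) and none fell (median 0.27). It was *Kat2a*, at 5.60 and 6.0 in melan-a and 6.45 to 7.09 in the derived libraries (adjusted p = 0.104 without melan-a replicate 2). Of 18 histone deacetylases 2 rose (11.1%, against 6.59% of all genes) and 4 fell (22.2%, against 5.7%, median -0.24). Among these calls 1 rise and none of the falls held whichever library was left out. *Sirt1*, a deacetylase that uses NAD, was at 2.80 and 3.08 in melan-a, at 4.85, 4.45 and 4.08 in 4C, 4.23, 4.78 and 5.07 in 4C11-, and 4.59, 4.68 and 4.48 in 4C11+, a rise of 1.64 ± 0.29 whose size did not differ between the lines past the threshold (F-test adjusted p = 0.8). *Sirt2* and *Hdac3* were lower in every library, by 1.05 and 0.92, and lost the call without melan-a replicate 2 (adjusted p = 0.319 and 0.195). Of 44 histone methyltransferases and demethylases 1 fell (2.27%, against 5.7% of all genes, median -0.23), *Kdm2a*, by 0.68. Of 15 genes of DNA methylation 1 fell (6.67%, against 5.7% of all genes, median 0.14), *Mbd2*, by 0.76. *Kdm2a* and *Mbd2* kept the call in 3 and 5 of the 11 fits with a library left out (highest adjusted p = 0.164 and 0.121). Of 17 imprinted genes 3 rose (17.6%, against 6.59% of all genes) and 3 fell (17.6%, against 5.7%, median -0.38). *Peg13*, a noncoding RNA, was higher in every library, by 2.0, a call not kept without melan-a replicate 2. The 1 measured keratinocyte marker, *Krt10*, fell by 1.81 (adjusted p = 0.172 and 0.0617 without melan-a replicate 2 or 3). No Y-linked gene and no *Xist* was in the table.

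Differences were uneven over the chromosomes, which was looked at after the values were seen and is a description without a test. For each library, the median deviation of the genes of a chromosome from the mean of the 4 line means was taken over genes with a mean log2 CPM of at least 1. On chromosome 11 it was -0.27 and -0.28 in melan-a and -0.07 to 0.26 in the 9 derived libraries, with no overlap. There 165 of 1137 genes (14.5%, against 6.59% of all genes) rose and 2.20% fell (against 5.7%). The median difference was 0.41 in 4C, 0.35 in 4C11- and 0.48 in 4C11+. On chromosome 16 melan-a was at 0.28 and 0.40 and the derived libraries at 0.17 or less. Its genes were lower in 13.5% and higher in 3.56%, with median differences of -0.17, -0.80 and -0.28. On chromosome 18 melan-a was at 0.20 and 0.35 and the derived libraries at 0.02 or less. Its genes were lower in 14.4% and higher in 5.29%, with median differences of -0.40, -0.49 and -0.31. These 3 chromosomes were the ones on which melan-a and the derived libraries did not overlap. On the X chromosome 17.0% of genes rose and 3.70% fell. Melan-a was at -0.54 and -0.11, 4C at 0.35 to 0.40, 4C11- at -0.06 to 0.48 and 4C11+ at -0.13 to 0.04, so that 4C11+ overlapped with melan-a. Copy number was not measured in these data.

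**Figure D5:**
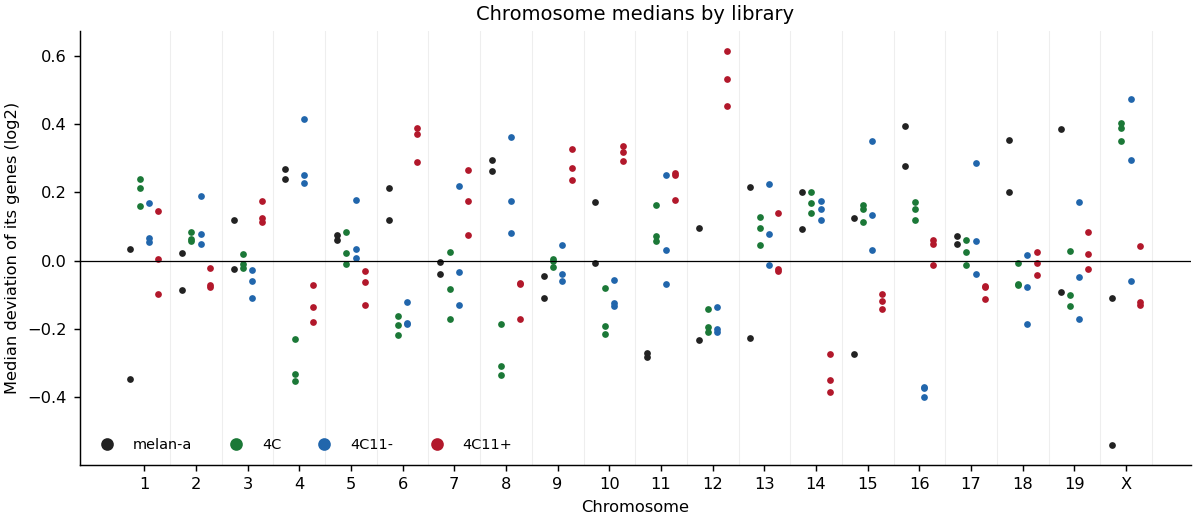
Median deviation (y axis, log2) of the genes of each chromosome (x axis) in the 11 libraries, melan-a in black, 4C in green, 4C11- in blue and 4C11+ in red. The black points lie apart from all others on chromosome 11, where they are lowest at -0.27 and -0.28, and on chromosomes 16 and 18, where they are highest.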

How the data were processed

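RNA-seq of cultured cells was used as deposited, 1 table per library, with log2 CPM for 14272 genes. Per the labels and the study's methods, the authors trimmed stranded total RNA reads with Trimmomatic, aligned them with STAR to GRCm38 (Ensembl 90), counted them with Rsubread, kept genes that reached 1 CPM in 4 or more libraries and made the deposited log2 values with voom of limma. The libraries share their highest value, 13.69, as after quantile normalization. Such scaling hides any global change in RNA content. Low read numbers and depth were estimated from single-read steps, depth at the step of 40 reads, and such scaling would also shift that depth.

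The log2 values were fitted with limma 3.58.1 in R 4.3.3 (a mean per line, trended prior, Benjamini-Hochberg over all genes, threshold 0.05). Named genes were the 12 per direction with the largest smallest line difference, up to 4 called members per list and direction, any member of the melanocyte, PMA and PKC lists, and, added after their values were seen, Hox genes and list members changed in every derived library. The members and the 31 lists were chosen with earlier results of these data known. On simulated data (200 changed genes among 14272), the contrast recovered 9% of differences of 1, 74% of 2 and 96.5% of 4, with 3, 7 and 7 unchanged genes called. Deviations of the libraries from their line mean were correlated between lines. Same-numbered replicates gave -0.226 to 0.388 and differently numbered ones -0.416 to 0.340, so numbers were not treated as pairs. One item, left out of the gene groups and figures, is not reported here. Alternatives were other normalizations, filters, priors, weights, groupings and each library left out.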

Additional observations from a re-analysis of the deposited data

Results flagged for a closer look

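For 9 of the 24 named genes the size of the difference from melan-a itself differed between the 3 derived lines (limma F-test adjusted over all genes), which is given here as the range of the 3 line differences. It was 8.35 log2 for *Capn6* (adjusted p = 1.57e-06), 6.45 for *Eya1* (3.01e-06), 6.37 for *Kit* (0.000309), 6.12 for *Itga8* (0.000179) and 4.75 for *Tbc1d9* (3.96e-05). It was 4.33 for *Apln* (0.00263), 4.00 for *Sorbs2* (0.00235), 2.73 for *Rtn4rl2* (0.0348) and 1.44 for *Timp1* (0.012). In the 8 falls a derived line was at 3 reads or fewer in at least 1 library, where log2 values are set by the scale of the library, and the part of this in the ranges was not tested.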

How the results depend on the processing

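Of 940 higher, 813 lower, 492 higher and 416 lower genes in every derived library, and 4705 genes differing between the lines, library weights (a fit that did not converge) gave 531 lower genes, 259 lower in every library and 10508 differing between the lines. With the derived libraries as 1 group, 143 were higher and 30 lower, all 143 and 30 in every library. A gap of at least 1 log2, chosen after seeing the data, left 153 and 55. Without melan-a replicate 2 there were 429 lower genes and 271 lower in every library, and without 4C11+ replicate 1 or 2 there were 3031 and 3095 differing between the lines. Over the 11 libraries left out in turn the counts ranged from 749 to 1107, 429 to 1129, 413 to 721, 271 to 602 and 3031 to 5272. The other alternatives gave counts within 1.5 times those reported. The replicate block gave 839 higher and 813 lower genes, 432 and 378 in every library and 5068 differing between the lines, and 173 of 194 called list and Hox genes kept their call under it. For the 24 named genes, 439 of 448 values kept direction and call, 9 lost the call and none reversed. With 2 melan-a libraries of about 3500000 and 5820000 reads, differences near 1 log2 may often be missed. In the simulation, with 200 changed genes and the same shift in every line, 9% of differences of 1 were recovered. The data held 1753 called genes, so that share may differ there.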
